A study of Mus musculus with 16 samples.

Results

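Secretory and membrane proteins are fed into the endoplasmic reticulum (ER) through a channel in its membrane, are trimmed and glycosylated as they enter, and are folded inside by chaperones and by enzymes that form disulfide bonds. Proteins that do not fold are sent back to the cytosol and degraded. When unfolded proteins build up, sensors in the ER membrane switch on factors such as XBP1, which raise the messages for this machinery in the unfolded protein response. Mast cells store and secrete large amounts of proteases and other mediators, and the secreted proteins among these pass through this pathway.

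The genes described here are 38 genes of this machinery, chosen by name: 11 lumenal chaperones and co-chaperones, 4 protein disulfide isomerases, 7 genes for a stress factor and for ER-associated degradation, and the genes of the translocon, of signal peptidase and of the oligosaccharyltransferase. Of these, 37 had a probe set annotated to that symbol alone, out of 18193 genes measured in the whole series. The exception was Sec61g, a small subunit of the Sec61 channel, whose probe set carried several symbols and was not used. Where a gene had several probe sets, the one of highest mean signal over all arrays was taken, and levels and statements about background refer to that probe set unless another is named. The rule names the genes and uses no signal.

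RNA from exosomes, the small vesicles that cells release, and from cells of the mouse mast cell line MC/9 had been hybridised to 16 Affymetrix Mouse 430 2.0 arrays, 4 in each of 4 groups: exosomes from cells under oxidative stress (oxi exo), exosomes from cells in normal conditions (norm exo), cells of the oxidative stress condition (oxi cell) and cells of the normal condition (norm cell). Oxidative stress was 125 µM H2O2 for 24 h, and all groups shared the cell line and its culture, so the exosomes came from 1 kind of donor cell. Exosomes were filtered at 0.22 µm according to the labels and then spun down at 120000 g over 70 min. By the labels the cells had been given exosomes of either condition, while the paper treats them as the donor cells, and which of these holds was not tested. The paper names different cultures for a pair of norm cell samples and a pair of norm exo samples, but gives no such account of the remaining samples, so p-values measure only the spread between these samples, which may be technical.

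Values are linear MAS5.0 signals, set by the authors so that the trimmed mean of every array is 100. The background of an array was its 95th percentile over 165 probe sets for 146 genes that belong to olfactory, taste, lens, hair and similar families. It was 242 ± 30.4 in oxi exo, 232 ± 23.2 in norm exo, 11.8 ± 0.556 in oxi cell and 15.2 ± 1.04 in norm cell (SD, n = 4 each). The spiked controls were 20.8 times brighter in oxi exo than in oxi cell and 17.3 times brighter in norm exo than in norm cell. For Gapdh, the 3' probe set over the 5' one averaged 1.89 in oxi exo and 1.64 in norm exo, against 0.851 in oxi cell and 0.832 in norm cell. For beta-actin this ratio was 2.77 to 4.48 in oxi exo and 3.81 to 6.55 in norm exo. It was 1.30 to 1.55 in oxi cell and 1.41 to 1.46 in norm cell. Of 11 mast cell markers measured, 10 were above background on all arrays of each cell group, as were 0 of 9 markers of B lymphocytes and plasma cells and 2 of 5 erythroid markers. Of 10 macrophage and neutrophil markers, 3 were above it on all arrays in oxi cell and 1 in norm cell. For 7 T lymphocyte markers the count was 1 in oxi cell and 0 in norm cell, and for 7 markers of fibroblasts and endothelium 1 in each cell group.

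All 37 genes were above background on every cell array, and few were on the exosome arrays. In oxi exo, 4 were above background on all 4 arrays, 9 on some and 24 on none. In norm exo, 8 were above on all 4 arrays, 9 on some and 20 on none. P4hb, Sec61b, Ssr1 and Rpn1 were above on all arrays of both exosome groups, and Derl1, Sec61a1, Ssr3 and Spcs3 on all arrays of norm exo but not of oxi exo. Over all probe sets tested, 3.10% were above background on all 4 arrays in oxi exo, 4.64% in norm exo, 45.1% in oxi cell and 44.2% in norm cell. Where a gene lay below background on all arrays of a group, its level there is only a bound.

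The share of an array's total signal taken by the 37 probe sets was 0.104%, 0.108%, 0.111% and 0.0847% in oxi exo, against 0.205%, 0.198%, 0.158% and 0.168% in norm exo. It was 0.803%, 0.800%, 0.795% and 0.815% in oxi cell, against 0.740%, 0.722%, 0.721% and 0.723% in norm cell. The groups did not overlap, and the H2O2 samples had the smaller share in exosomes and the larger share in cells. The 37 probe sets are 0.0822% of those tested. Their mean share was near this in oxi exo (0.102%), above it in norm exo (0.182%) and far above it in both cell groups. The median rank of the genes was the 60.6th percentile of all probe sets in oxi exo and the 77.8th in norm exo, against the 97.7th in both cell groups.

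**Figure D1:**
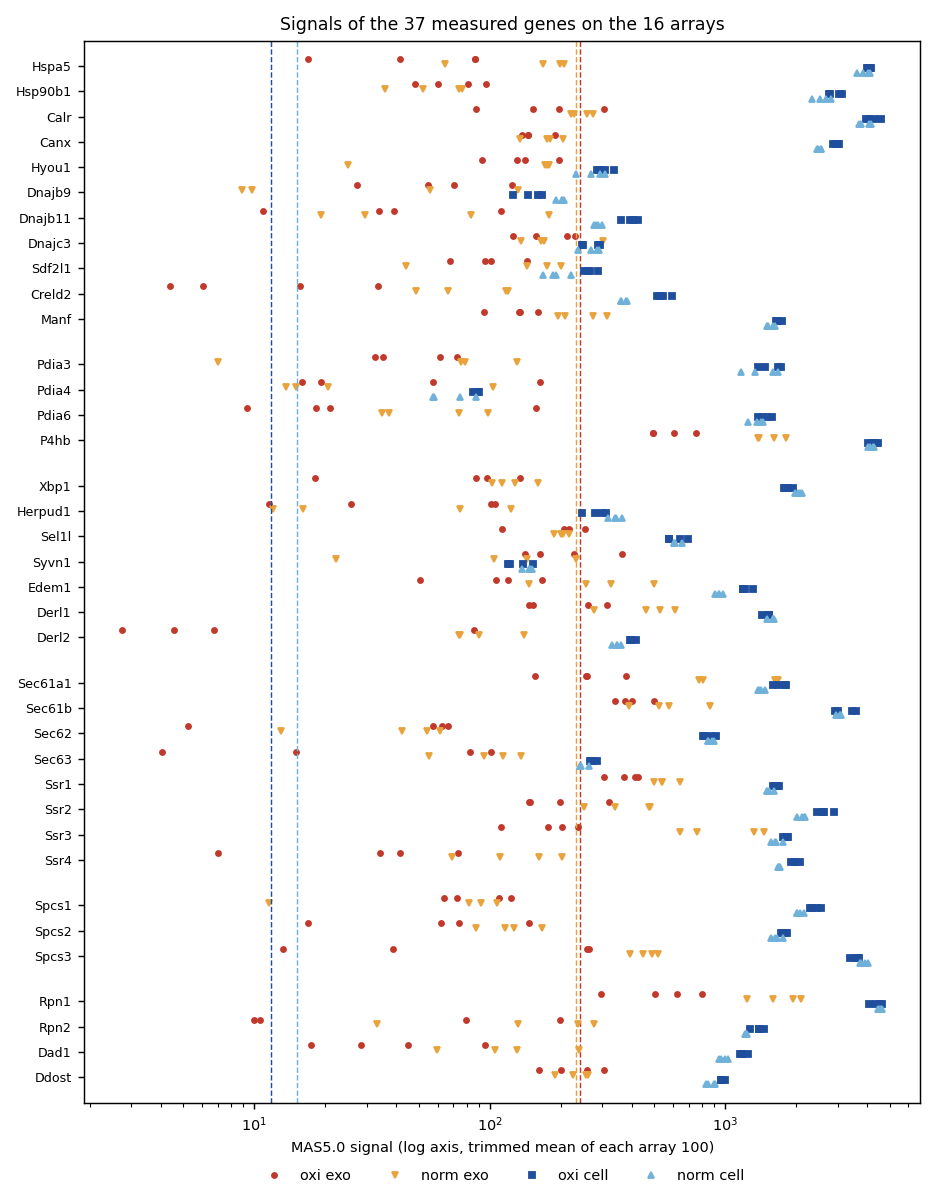
MAS5.0 signal (log axis) of the 37 measured genes on each of the 16 arrays, grouped by role from lumenal chaperones at the top to the oligosaccharyltransferase at the bottom. Each mark is 1 array, and dashed lines give the mean background of each group in the same colours (242 in oxi exo, 232 in norm exo, 11.8 in oxi cell, 15.2 in norm cell). All cell marks lie above the cell backgrounds, and most exosome marks lie below the exosome backgrounds.

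Many genes of this machinery carry the ER stress response element, to which the factors of the unfolded protein response bind, in front of their start. To show where the listed genes carry it, RefSeq promoter windows (build GRCm38.p6, 250 bases before to 50 after the start) were searched on both strands for CCAAT and CCACG with 9 bases between them, and for the related element ERSE-II, ATTGG and CCACG with 1 base between them. Windows were found for 32 of the 38 genes. The first element was in 39 of 32851 windows (0.119%) and in those of 8 listed genes: Calr, Canx, Creld2, Dnajc3, Hsp90b1, Hspa5, Pdia6 and Syvn1. ERSE-II was in 12 windows (0.0365%), among them those of Dnajb11, where it lay after the start, and Herpud1. No window of a listed gene held both. The elements of 5 genes whose signals are described further on are printed 5' to 3' along the gene's strand, with the element in capitals. It reads on the opposite strand in Calr and Creld2 and in the second copy of Hsp90b1.
Hspa5, chr2:34772010-34772058, plus strand: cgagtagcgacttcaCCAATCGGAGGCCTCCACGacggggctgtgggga
Hsp90b1, chr10:86705518-86705671, minus strand: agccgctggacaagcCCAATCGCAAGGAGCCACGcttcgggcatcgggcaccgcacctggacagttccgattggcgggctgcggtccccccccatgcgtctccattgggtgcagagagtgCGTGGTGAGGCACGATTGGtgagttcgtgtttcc
Calr, chr8:84847060-84847108, minus strand: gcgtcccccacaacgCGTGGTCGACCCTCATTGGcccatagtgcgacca
Creld2, chr15:88819505-88819553, plus strand: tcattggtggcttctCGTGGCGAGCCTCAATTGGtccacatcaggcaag
Herpud1, chr8:94386362-94386402, plus strand: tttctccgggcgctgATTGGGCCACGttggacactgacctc
A match is a description of these letters and not a site of binding.

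The first comparison asked how the messages in exosomes differed when the donor cells were under oxidative stress. In oxi exo, 5 of the 37 genes were lower than in norm exo and 0 were higher (limma blocked on replicate number, adjusted p under 0.05). The 5 were Ssr3 and Sec61a1 of the translocon, Spcs3 of signal peptidase, Rpn1 of the oligosaccharyltransferase and P4hb, the main protein disulfide isomerase. At an unadjusted p under 0.05, 15 were lower and 1 was higher (Syvn1). Of all probe sets, 1.7% were lower and 0.0311% higher. Calls came almost all from bright probe sets, those with a mean signal of at least 229 over all arrays. Of these 5103, 14.1% were lower, as were 5 of the 28 listed genes past the same cut (17.9%), a similar share. The cut does not match brightness on the exosome arrays, where some of the 28, such as Hspa5, lay below background throughout by the probe set used. The median log2 change was -0.87 over the 37 genes and 0.06 over all probe sets. Among bright probe sets it was -0.99 for the 28 listed genes and -0.53 for all 5103. In bulk RNA scaled to 1 mean per array, fewer vesicles or cells that hold a message and less of it in each cannot be told apart.

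Ssr3, the gamma subunit of the translocon-associated protein complex that sits beside the channel, had signals of 203, 238, 111 and 177 in oxi exo, against 758, 1319, 645 and 1460.2 in norm exo. It was lower in oxi exo (log2 change -2.49 ± 0.26 SE, adjusted p = 0.000186), but 3 of the 4 oxi exo arrays lay below background, so the size of the change was not measured in full. Sec61a1, the pore-forming subunit of the Sec61 channel, had signals of 259, 378, 258 and 156 in oxi exo, against 1676, 1632, 772 and 804 in norm exo. Every norm exo array was above every oxi exo array for both genes, though norm exo itself split into brighter and dimmer arrays. The change of Sec61a1 was -2.19 ± 0.24 (adjusted p = 0.000229), with 2 of the 4 oxi exo arrays above background.

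Sec61b, the tail-anchored subunit of the channel, had signals of 339, 376, 501 and 402 in oxi exo, against 862, 575, 523 and 391 in norm exo. The ranges overlapped, and the change of -0.50 ± 0.27 was not called (adjusted p = 0.585). Ssr1, the alpha subunit of the translocon-associated complex, was lower on all oxi exo arrays (305 to 428, against 501 to 642 in norm exo) but was not called either (-0.55, adjusted p = 0.466). Log2 changes of all 8 translocon genes were below 0, and the 2 above passed the test. Ssr4, the delta subunit, was below background on all exosome arrays by the probe set used, at 73.2, 34.1, 41.8 and 7.03 in oxi exo, against 110.2, 162, 203 and 69.1 in norm exo, so no fold is given. Another Ssr4 probe set was above background on 1 oxi exo array.

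Spcs3, the accessory subunit of signal peptidase, the protease that removes the signal peptide of entering chains, had signals of 259.9, 263, 38.8 and 13.3 in oxi exo, against 445, 517, 487 and 394 in norm exo. The groups did not overlap, but the oxi exo arrays fell into a brighter and a much dimmer pair, and 1 of the 4 was above background. The fitted change of -2.57 ± 0.55 (adjusted p = 0.0206) rests on 3 oxi exo signals below background, and it was not called without the replicate block or without replicate 3 or 4. Spcs1, a small subunit of the same enzyme, had 72.6, 109, 123 and 64.0 in oxi exo, against 81.3, 108, 91.4 and 11.6 in norm exo, all below background.

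Rpn1 (ribophorin I) is the subunit of the oligosaccharyltransferase, the enzyme that adds N-linked sugars, that holds substrates for the catalytic subunit. Its signals were 506, 795, 626 and 297 in oxi exo, against 2099, 1948, 1234 and 1596 in norm exo. All 8 arrays were above background and the groups did not overlap. The change was -1.69 ± 0.24, or 3.22-fold lower (adjusted p = 0.000726). Dad1, a small subunit of the same enzyme, had 28.5, 44.8, 17.4 and 95.7 in oxi exo, against 239.6, 59.9, 129.9 and 106 in norm exo, with 1 of these 8 arrays above background and no call (adjusted p = 0.490).

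P4hb had signals of 493, 603, 748 and 493 in oxi exo, against 1819, 1605, 1380.0 and 1398 in norm exo. All arrays were above background, the groups did not overlap, and the change was -1.42 ± 0.21, or 2.68-fold lower (adjusted p = 0.00102). Of the probe sets used for the 4 disulfide isomerases, it was the only one above background in exosomes. Pdia3, the partner of calreticulin and calnexin, had 61.5, 32.4, 72.7 and 35.1 in oxi exo, against 75.4, 131, 7.04 and 78.3 in norm exo. Pdia6 had 21.0, 18.4, 157 and 9.28 in oxi exo, against 34.7, 73.8, 37.3 and 98.3 in norm exo. The probe sets used for both lay below background on all arrays, but a second Pdia3 set, of low signal in cells, was above it on 4 oxi exo and 3 norm exo arrays (mean 331 in oxi exo and 281 in norm exo).

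**Figure D2:**
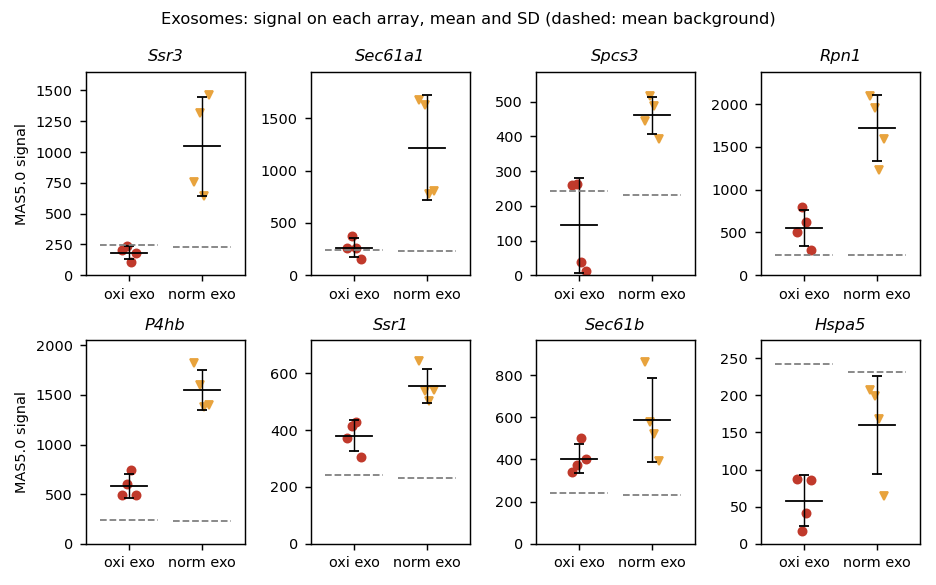
MAS5.0 signal of 8 genes on each exosome array, with oxi exo on the left and norm exo on the right of each panel. Marks are arrays, bars the mean and SD (n = 4), and dashed lines the mean background. Ssr3, Sec61a1, Spcs3, Rpn1, P4hb and Ssr1 do not overlap between the groups, Sec61b does, and Hspa5 lies below background throughout.

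None of the 11 lumenal chaperones passed the test in exosomes, and the most abundant of them in cells were hardly seen. Hspa5 (BiP), the Hsp70 of the ER lumen, had 86.6, 16.9, 41.5 and 86.4 in oxi exo, against 208, 199, 168 and 64.6 in norm exo, all below background. Hsp90b1 (Grp94), the Hsp90 of the lumen, had 60.5, 80.6, 96.2 and 48.2 in oxi exo, against 73.7, 52.0, 76.3 and 36.0 in norm exo, also all below. Calr (calreticulin), which holds newly glycosylated proteins, was above background on 1 oxi exo array and 3 norm exo arrays, with 197, 152, 304 and 87.5 in oxi exo and 276, 258, 228 and 222 in norm exo (adjusted p = 0.684). A second Hspa5 probe set of low signal in cells was above background on 3 of 4 arrays of each exosome group (mean 538 in oxi exo and 373 in norm exo), so the probe sets of this gene did not agree there.

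Creld2, a stress-induced lumenal protein, had 4.40, 33.5, 6.04 and 15.6 in oxi exo, against 66.2, 117, 48.4 and 120.0 in norm exo. The groups did not overlap, but both were below background. Sdf2l1 had 95.1, 144, 67.6 and 101 in oxi exo, against 144, 201, 43.9 and 175 in norm exo. Dnajb11 had 111, 39.4, 10.9 and 33.8 in oxi exo and 83.1, 179, 19.2 and 29.6 in norm exo. Neither separated the groups. Dnajb9 had 70.7, 27.4, 54.5 and 124 in oxi exo, against 8.88, 9.81, 131 and 55.6 in norm exo, likewise below background.

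Of the 7 genes for the stress factor and degradation, 0 passed the test in exosomes by limma (3 had an unadjusted p under 0.05 and were lower, 1 was higher). Derl1 (derlin 1), a membrane protein of the route back to the cytosol, came closest, at 147 to 315 in oxi exo against 276 to 611 in norm exo (-1.12 ± 0.28, adjusted p = 0.0566). Derl2 had 85.3, 6.75, 4.56 and 2.75 in oxi exo, against 139, 89.7, 74.9 and 74.1 in norm exo. Xbp1 had 18.2, 87.7, 135 and 97.6 in oxi exo, against 102, 128, 112 and 159.9 in norm exo. Herpud1 had 25.8, 11.5, 105 and 102 in oxi exo, against 124, 12.0, 75.1 and 16.1 in norm exo. The probe sets used for the last 3 were below background on all exosome arrays. Of their other sets, 1 of Xbp1 was above it on 1 oxi exo array, and 1 of Xbp1 and 1 of Herpud1 on 1 norm exo array each.

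Probe sets of one gene bore on the same calls. Of the 6 probe sets of Rpn1, 4 were lower in oxi exo, as were 3 of the 6 of Sec61a1 and both of Ssr3, whose other set stood above background on all 8 arrays (mean 438 in oxi exo and 1023 in norm exo, log2 change -1.23, adjusted p = 0.0100). Probe sets of a gene share its RNA and are not replicates. Under quantile normalization only Ssr3 and Sec61a1 were called, with adjusted p = 0.0539 for Rpn1, 0.0661 for Spcs3 and 0.0942 for P4hb, and with limma run without a trend of variance on signal 0 genes and 0 probe sets passed (9 of the genes were lower at an unadjusted p under 0.05).

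The second comparison set cells of the oxidative stress condition against cells of the normal condition. The change between them is called the change under H2O2, whichever account of how the cells were treated holds. In oxi cell, 11 of the 37 genes were higher than in norm cell and 1 was lower (limma, adjusted p under 0.05), against 4.31% of all probe sets higher and 5.51% lower. The risers were Creld2, Sdf2l1, Dnajb11 and Canx among the chaperones, Edem1 and Derl2 of degradation, Ssr2, Sec61a1 and Ssr4 of the translocon, Spcs1 and Dad1, and the gene that fell was Dnajb9. Their rises were small, between 1.16-fold for Derl2 and 1.47-fold for Creld2. Among the 28 bright genes 8 were higher (28.6%) and 0 lower, against 20.8% and 16.2% of bright probe sets. Without overlap between the groups, 16 of the 37 were higher and 4 lower, against 6.38% and 9.72% of all probe sets.

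Creld2 had signals of 542, 530.4, 514 and 596 in oxi cell, against 381, 361, 382 and 361 in norm cell. The change was 0.55 ± 0.07 (adjusted p = 0.000530), with all oxi cell arrays above all norm cell arrays. Sdf2l1, a partner of the co-chaperone encoded by Dnajb11, had 266, 289.5, 263 and 252 in oxi cell, against 222, 186, 169 and 191 in norm cell (0.48 ± 0.08, adjusted p = 0.00401). Dnajb11 (ERdj3), which brings unfolded proteins to BiP, had 407, 426, 360.0 and 394 in oxi cell, against 299, 277, 288 and 283 in norm cell (0.47 ± 0.07, adjusted p = 0.00169). None of the 3 overlapped between the groups. Canx, the membrane-bound relative of calreticulin, was at 2855 to 3049 in oxi cell against 2457 to 2560.3 in norm cell (0.24 ± 0.05, adjusted p = 0.0108).

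Dnajb9 (ERdj4), another J-domain partner of BiP, was the only 1 of the 37 genes called lower. It had 159.6, 166, 145 and 125 in oxi cell, against 206, 202, 202 and 191 in norm cell, and was lower, without overlap (-0.44 ± 0.08 on the log2 scale, adjusted p = 0.00664). Scaled to the spiked controls, its change was -0.14 and it was not called.

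The most abundant chaperones did not pass the test. Hspa5 had 3982, 4178, 4106 and 4046 in oxi cell, against 3829.8, 3631, 4047 and 4115 in norm cell, a change of 0.06 with a 95% interval of -0.05 to 0.18. Hsp90b1 had 2790.3, 2771, 3037 and 3128 in oxi cell, against 2822, 2674, 2343 and 2528 in norm cell (0.18, interval 0.03 to 0.33, adjusted p = 0.140). Calr had 4070.5, 3954, 4301 and 4604 in oxi cell, against 3770.4, 3691, 4087 and 4144 in norm cell (0.11, adjusted p = 0.209). All 3 overlapped between the groups. The other 2 probe sets of Calr were called higher (0.47 and 0.43, adjusted p = 0.000553 and 0.00219), so the sets of this gene gave different answers.

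The 4 disulfide isomerases had log2 changes above 0 and none was called by limma, with 1 (Pdia4) at an unadjusted p under 0.05. P4hb had 4024, 4329, 4449 and 4254 in oxi cell, against 4031, 4129, 4236 and 4284 in norm cell (0.03, interval -0.08 to 0.14). Pdia3 had 1471, 1733, 1379.7 and 1673 in oxi cell, against 1591, 1340.0, 1680.0 and 1167 in norm cell. Pdia6 had 1435, 1574, 1379 and 1509 in oxi cell, against 1453, 1253, 1425 and 1362 in norm cell. The arrays of the 2 conditions overlapped for each of these genes.

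Xbp1, the transcription factor of the response, was lower on every oxi cell array, with 1799, 1839, 1936 and 1780.3 in oxi cell, against 2085, 2123, 2044 and 1974 in norm cell. The change of -0.16 ± 0.05 did not pass the test (adjusted p = 0.0729), while 2 of its 3 other probe sets were called lower (-0.25 and -0.22, adjusted p = 0.00806 and 0.0302). The signals were not resolved into the spliced and unspliced message. Herpud1, a stress-induced membrane protein of the degradation route, had 279, 312, 299 and 246 in oxi cell, against 365, 317, 343 and 341 in norm cell, without overlap (-0.27 ± 0.08, adjusted p = 0.0610), and its other probe set was called lower (-0.45, adjusted p = 0.0105).

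Within the same group of genes, Edem1, which hands misfolded glycoproteins to degradation, was higher, at 1193 to 1306 in oxi cell against 909 to 980.4 in norm cell (0.38 ± 0.06, adjusted p = 0.00165), though its second probe set was not (0.002, adjusted p = 0.991). Derl2 had 399, 396, 418 and 398 in oxi cell, against 346, 331, 346 and 362 in norm cell (0.22 ± 0.06, adjusted p = 0.0482). Its groups did not overlap, but the call was lost whichever replicate was left out. Syvn1 and Sel1l, which form the ubiquitin ligase complex of this route, were not called (-0.14, adjusted p = 0.426, and 0.01, adjusted p = 0.964).

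**Figure D3:**
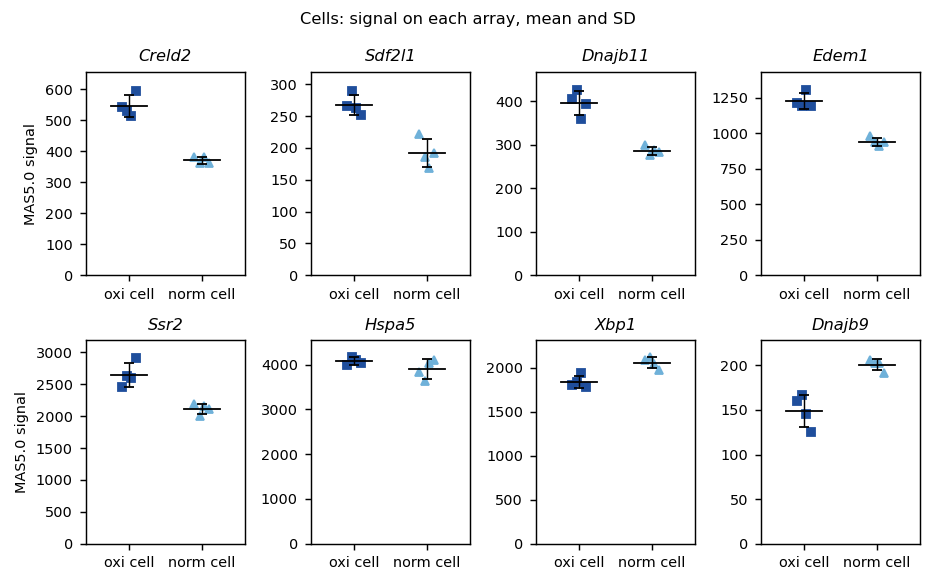
MAS5.0 signal of 8 genes on each cell array, with oxi cell on the left and norm cell on the right of each panel. Marks are arrays and bars the mean and SD (n = 4). Creld2, Sdf2l1, Dnajb11, Edem1 and Ssr2 are higher on every oxi cell array, Xbp1 and Dnajb9 lower on every one, and Hspa5 overlaps.

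In the translocon, 3 of 8 genes were higher in oxi cell. Sec61a1 had 1594, 1676, 1820.0 and 1800.4 in oxi cell, against 1423, 1388, 1481 and 1379 in norm cell (0.28 ± 0.05, adjusted p = 0.00742). Ssr4 had 1987, 1979.5, 1894 and 2072 in oxi cell, against 1714, 1688, 1687 and 1667 in norm cell (0.23 ± 0.05, adjusted p = 0.0148). Both were higher on every oxi cell array, as was Ssr2, at 2459.6 to 2908 in oxi cell against 2010.2 to 2187 in norm cell (0.32 ± 0.06, adjusted p = 0.00528). Of the 6 probe sets of Sec61a1, 3 were called higher and 1, of low signal, was called lower (-0.49, adjusted p = 0.00271).

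Ssr3 had 1832, 1819, 1839 and 1767 in oxi cell, against 1754, 1636, 1558 and 1631 in norm cell, without overlap but without a call (0.14, adjusted p = 0.124). Its other probe set was called higher (0.21, adjusted p = 0.0286). Over the 95 probe sets of all the genes, 21 were called higher and 6 lower, against 4.31% and 5.51% of all probe sets. Sec61b had 3002, 2936, 3591 and 3465 in oxi cell, against 3057, 3064, 2944 and 3091 in norm cell. Oxi cell arrays 3 and 4 were above norm cell and arrays 1 and 2 below most of it (0.09, adjusted p = 0.454).

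Spcs1 had 2293, 2338, 2559 and 2453 in oxi cell, against 2156, 2011, 2087 and 2021 in norm cell (0.22 ± 0.05, adjusted p = 0.0246). Spcs3 went the other way on every array, with 3375, 3590.3, 3664 and 3712 in oxi cell, against 3745, 3759, 4033 and 3925 in norm cell, and was not called (-0.11, adjusted p = 0.214). Dad1 had 1182, 1159, 1183 and 1246 in oxi cell, against 962, 1002, 941 and 1024 in norm cell (0.28 ± 0.05, adjusted p = 0.00589). So within signal peptidase and the oligosaccharyltransferase some subunits rose and others did not pass the test: Rpn1 had 4073, 4358, 4641 and 4541 in oxi cell, against 4467, 4507, 4598 and 4649 in norm cell (-0.05, adjusted p = 0.621).

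**Figure D4:**
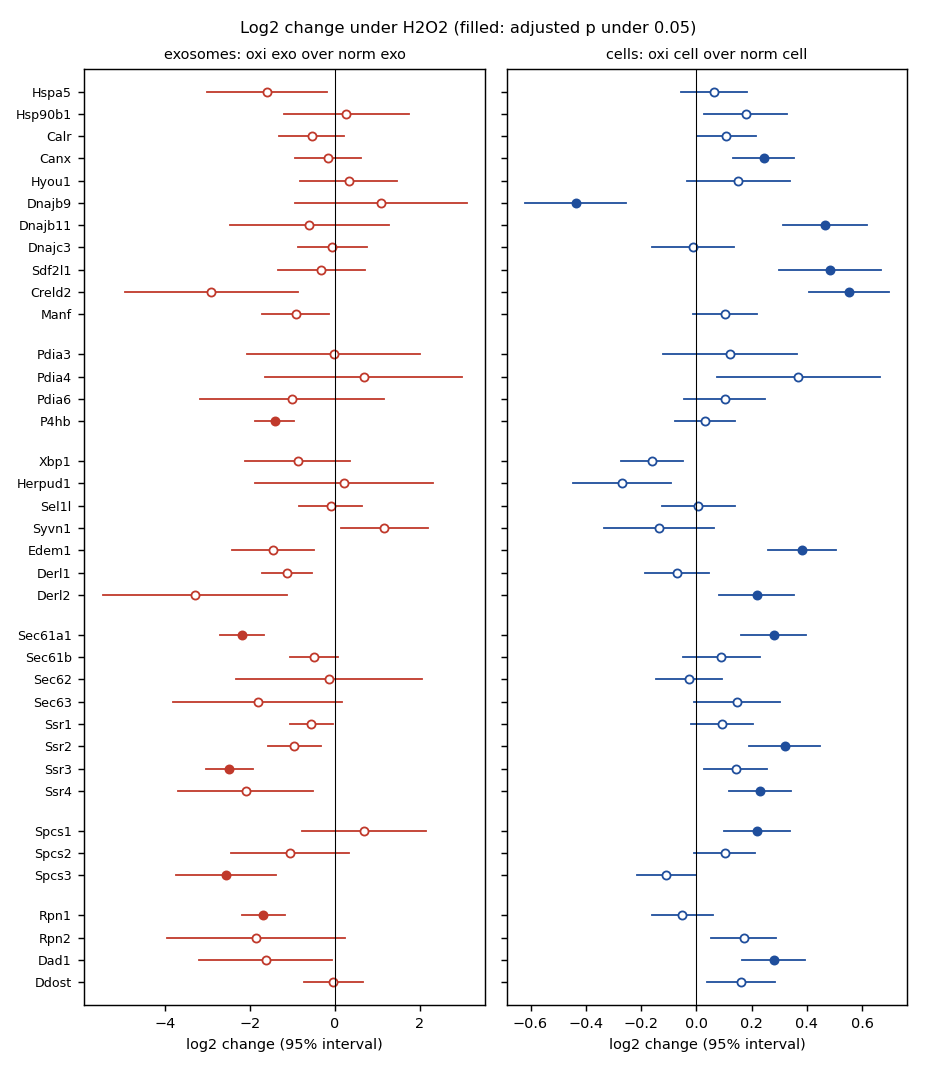
Log2 change under H2O2 with its 95% interval for each of the 37 genes, in exosomes on the left (oxi exo over norm exo) and in cells on the right (oxi cell over norm cell), with separate scales. Filled marks passed an adjusted p of 0.05: 5 lower in exosomes, and 11 higher and 1 lower in cells.

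The cell result moved with the scaling and with single replicates. The median change of all probe sets was -0.15 as deposited, 0.001 after quantile normalization and 0.15 with the spiked controls as the scale, and that of the 37 genes was 0.12, 0.10 and 0.42. Among bright probe sets it was 0.015 as deposited, against 0.11 for the 28 bright genes. Scaled to the spiked controls 32 genes were higher and 0 lower, and Xbp1 and Herpud1 had changes of 0.13 and 0.03. Of all 45037 probe sets, 6443 were then higher and 430 lower, against 1941 and 2483 as deposited. Leaving out replicate 2 left 7 higher genes and leaving out replicate 4 left 5, which were Dnajb11, Sdf2l1, Creld2, Edem1 and Dad1. Without a trend of variance limma called 0 (6 higher and 1 lower at an unadjusted p under 0.05). Of the 8 genes whose window held the first element, 2 were called higher in oxi cell (Canx and Creld2), against 7 of the 24 with a window and no such element. Those 24 include Dnajb11 and Herpud1, whose windows held ERSE-II, and Dnajb11 is 1 of the 7.

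Further genes of the pathway were taken from lists of 16 to 25 genes. Of 16 sensors, factors and proteases of the unfolded protein response, 2 were higher in oxi cell and 4 lower. The falls included Ppp1r15a (GADD34), which restores translation after stress, at 401 ± 118 in oxi cell and 561 ± 19.1 in norm cell (-0.53, adjusted p = 0.0147), and Ddit3 (CHOP), at 241 ± 25.2 in oxi cell and 342 ± 33.9 in norm cell (-0.51, adjusted p = 0.00189). Of 25 other folding enzymes, 8 were higher and 1 lower, led by the prolyl isomerase Fkbp11 (1.09, adjusted p = 0.00269) and the disulfide isomerase Pdia5 (0.85, adjusted p = 0.00112). Of 24 genes of targeting, insertion and glycosylation, 6 were higher and 0 lower, led by Srp72 and Srp9 of the signal recognition particle (0.50, adjusted p = 0.00149, and 0.42, adjusted p = 0.00117). Of 21 other degradation genes, 5 were higher and 0 lower, led by Nploc4, a cofactor of the segregase Vcp, and Vimp (0.61, adjusted p = 0.00119, and 0.53, adjusted p = 0.000449). These counts stand beside 20.8% of bright probe sets higher and 16.2% lower, and no list was tested against that share. Scaled to the spiked controls, 0 genes of these 4 lists were lower, where only 430 of all 45037 probe sets were.

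In exosomes, 1 gene of these 4 lists was lower in each of targeting and degradation, and 0 in the other lists. They were Wrb, an insertion receptor (-1.45, adjusted p = 0.00363), and Vcp (-1.74, adjusted p = 0.0310). Machinery outside the ER was called too: of 8 subunits of the cytosolic CCT chaperonin, 6 were lower in oxi exo and 6 higher in oxi cell, and of 14 subunits of the 20S proteasome, 0 were called in exosomes and 10 were higher in oxi cell. Under quantile normalization 3 CCT subunits were lower in oxi exo, with a median change of -0.81, against -1.56 as deposited. The largest changes were those of Cct4 and Cct5 in exosomes (-1.76, adjusted p = 0.000319, and -1.71, adjusted p = 0.00287), of Cct8 and Cct6a in cells (0.34, adjusted p = 0.00233, and 0.32, adjusted p = 0.00351) and of Psmb7 and Psmb3 in cells (0.61, adjusted p = 0.000449, and 0.60, adjusted p = 0.000129). Mast cell markers moved too. Of 11, 4 were lower in oxi exo than in norm exo and their summed signal was 1627 to 2431 in oxi exo and 4172 to 6664 in norm exo, and 7 were lower and 1 higher in oxi cell, with sums of 31939.9 to 38063 in oxi cell and 42427 to 46442 in norm cell. Scaled to the spiked controls, 3 of the 11 were higher and 2 lower in oxi cell. As deposited, the largest falls among called markers in exosomes were those of the receptor chains Ms4a2 (-1.95, adjusted p = 0.000677) and Fcer1a (-1.91, adjusted p = 0.000265). In cells they were those of the proteases Tpsb2 (-1.11, adjusted p = 1.90e-05) and Cma1 (-0.69, adjusted p = 5.93e-05). Over all 11 markers, called or not, the lowest log2 changes were -1.998 in exosomes and -1.18 in cells. Their part in the changes of the ER genes was not tested.

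The third comparison tested whether the change under H2O2 differed between exosomes and cells, from the 8 differences within replicate numbers. It was lower in exosomes for 7 of the 37 genes and higher for 0 (limma; at an unadjusted p under 0.05, 16 lower and 1 higher), against 1.18% of all probe sets lower and 0.0289% higher. Among the 28 bright genes 6 were lower (21.4%), against 9.74% of bright probe sets. Ssr3 (-2.63 ± 0.30, adjusted p = 0.0122), Sec61a1 (-2.47 ± 0.29, adjusted p = 0.0122), Rpn1 (-1.64 ± 0.28, adjusted p = 0.0214) and P4hb (-1.45 ± 0.24, adjusted p = 0.0213) were above background on all norm exo arrays. Derl2 (-3.52, adjusted p = 0.0344), Creld2 (-3.47, adjusted p = 0.0169) and Ssr4 (-2.34, adjusted p = 0.0371) were below background on all exosome arrays by the probe sets used, so their differences rest on signals that were not measured above it. Sec61a1 thus fell in exosomes and rose in cells, each by its own test. The other probe set of Ssr3 did not pass for the difference (-1.45, adjusted p = 0.0545). Leaving out replicate 1 or 2 left 0 calls over all probe sets, and leaving out replicate 4 left 2, Ssr3 and Sec61a1. Under quantile normalization 3 were called, Ssr3, Sec61a1 and Ssr4.

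The last comparison set exosomes against cells. As deposited and by the probe set used for each gene, 34 of the 37 genes had less signal in oxi exo than in oxi cell. For norm exo against norm cell 33 did, and 0 were higher in either condition (limma, with 0 higher also at an unadjusted p under 0.05). Of all probe sets, 19.4% fell and 60.8% rose in the H2O2 condition, and 19% fell and 57.7% rose in the normal one. Bright probe sets were mostly lower too, 83.6% in oxi exo and 77.3% in norm exo. Of the 28 bright genes 27 (96.4%) and 26 (92.9%) were lower. The cut for bright sets is on the mean over all arrays, and cell signals alone can carry a set past it, as for Hspa5. It thus admits sets because they are high in cells, so these shares cannot test whether exosomes are lower. Taking 1 set per gene by its mean over all arrays has a like limit. For every gene but Syvn1 the set used was also its brightest in cells. The count of 0 higher and the medians of the 37 genes therefore depend in part on that choice. Over all 95 sets of these genes, limma called 10 higher and 68 lower in the H2O2 condition. In the normal condition it called 9 higher and 65 lower. Not called were Pdia4, Dnajc3 and Syvn1 in the H2O2 condition and Sdf2l1, Dnajc3, Syvn1 and Sec61a1 in the normal one. The scaling sets these values: the median change of all probe sets was 2.67 in the H2O2 and 2.23 in the normal condition as deposited, 0.21 and 0.15 under quantile normalization, and -1.71 and -1.88 scaled to the spiked controls. With the median of all probe sets subtracted, that of the 37 genes was -6.26 in the H2O2 and -4.66 in the normal condition as deposited, and -3.82 and -2.77 under quantile normalization. Without subtraction, bright probe sets had a median of -2.44 in the H2O2 and -1.83 in the normal condition as deposited. The 28 bright genes had -4.46 and -2.87, under the same limit of the cut.

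For genes below the exosome background the fall can be given only as a bound, which refers to the probe set used and holds on the deposited scale only. Hspa5 was at least 16.9-fold lower in both conditions by the probe set used. An Hspa5 set of low signal in cells had log2 differences of 0.73 in oxi exo and 0.38 in norm exo. Neither was called by limma (adjusted p = 0.226 and 0.245). The remaining Hspa5 set was lower in both (-5.77 in oxi exo and -4.67 in norm exo). For Hsp90b1 the bound for oxi exo against oxi cell was at least 12.1-fold lower, and that for norm exo against norm cell at least 11.2-fold. For Canx it was at least 12.3-fold in oxi exo and 10.9-fold in norm exo, for Spcs1 at least 9.99-fold in oxi exo and 8.96-fold in norm exo, and for Ssr4 at least 8.22-fold in oxi exo and 7.31-fold in norm exo. All 5 of these were far below their cell levels on the deposited scale. The bound was at least 6.46-fold for Pdia3 in oxi exo and 6.19-fold in norm exo, for Pdia6 at least 6.11-fold in oxi exo and 5.94-fold in norm exo, and for Xbp1 at least 7.62-fold in oxi exo and 8.90-fold in norm exo.

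For genes above background on all arrays a fold could be given on the deposited scale. P4hb was 7.40-fold lower in oxi exo than in oxi cell and 2.71-fold lower in norm exo than in norm cell. Rpn1 was 8.41-fold lower in oxi exo and 2.70-fold lower in norm exo, Ssr1 4.35-fold in oxi exo and 2.78-fold in norm exo, and Sec61b 8.09-fold in oxi exo and 5.39-fold in norm exo (adjusted p from 1.39e-05 to 8.30e-05 over these 8 tests). These folds depend on the scaling: under quantile normalization the log2 differences in norm exo were -0.03 for P4hb (adjusted p = 0.793), -0.09 for Rpn1 (adjusted p = 0.401) and 0.0053 for Ssr1 (adjusted p = 0.983), and none of the 3 was called. In oxi exo Ssr1 was then not called (-0.31, adjusted p = 0.364), while P4hb (-0.82), Rpn1 (-1.11) and Sec61b (-1.05) were, as was Sec61b in norm exo (-1.01). In norm exo alone, Ssr3 was 1.67-fold lower than in norm cell (-0.74, adjusted p = 0.0123) and Sec61a1 was not called (-0.31 ± 0.23, adjusted p = 0.241). Under quantile normalization both were called higher in norm exo, Ssr3 at 0.72 (adjusted p = 0.00796) and Sec61a1 at 1.14 (adjusted p = 0.000305). Of the 26 genes with several probe sets, 8 in the H2O2 condition and 9 in the normal one had sets called in both directions, among them Rpn1, Pdia3, Spcs1 and Ssr4, whose dim sets were higher on the exosome arrays. Scaled to the spiked controls, all 37 genes were lower in exosomes in both conditions, by the probe sets used. Of all 45037 probe sets, 22455 were then lower and 1780 higher in oxi exo, and 23105 lower and 1232 higher in norm exo. In oxi exo the log2 differences were then -7.27 for P4hb, -7.45 for Rpn1, -6.50 for Ssr1 and -7.39 for Sec61b. In norm exo they were -5.55, -5.54, -5.59 and -6.54 in the same order.

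**Figure D5:**
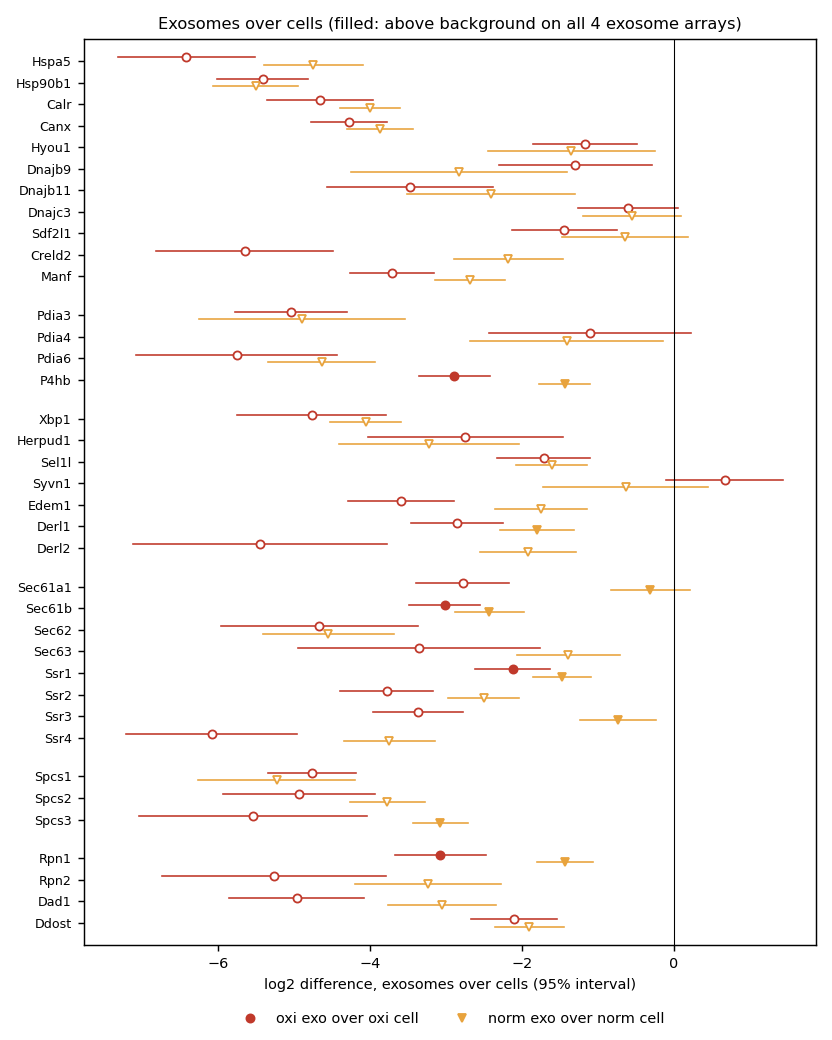
Log2 difference of exosomes over cells with its 95% interval, for the H2O2 condition (oxi exo over oxi cell, circles) and the normal condition (norm exo over norm cell, triangles). Filled marks were above background on all 4 exosome arrays, and open marks were not and are only bounds or partly measured. By the probe sets used, all differences but that of Syvn1 in the H2O2 condition lie below 0, and that of Sec61a1 in the normal condition is -0.31.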

How the data were processed

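RNA of exosomes and cells was measured on 16 arrays. The deposited intensity values are linear MAS5.0 signals that the authors made in GCOS 1.2 per the labels, scaled to a mean of 100 with 2% of probe sets trimmed at each end. The paper names the array 430A 2.0 and the labels 430 2.0, and the table holds the 45101 probe sets that the 430 2.0 carries. No detection calls were used. Without the 64 controls, 45037 probe sets entered the tests: 34945 had a single symbol, 932 several and 9160 none. No filter on dim probe sets was applied, and with 4 arrays a group their number limits the precision.

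Comparisons used limma 3.58.1 (lmFit, then eBayes with a variance trend, in R 4.3.3) on log2 signals. The replicate number entered as a block, since the paper's methods use a paired test. P-values were adjusted over the whole table by Benjamini-Hochberg, with calls at 0.05. Errors of log2 changes are SE. A bound sets the brighter group's mean against the higher of background and signal in the dimmer group. Bright probe sets are those with a mean signal of at least the lowest quartile of the 37 genes (229). Per-array values were given for 13 genes of known role and for the 3 largest rises and falls of each comparison. Of other lists the 2 largest called changes were given. The genes and lists were chosen with earlier results of these data known. The fits were tested on simulated data. Python 3.11.15, numpy 2.4.6, pandas 2.3.3 and matplotlib 3.10.9 were used. Alternatives were no block, quantile normalization, scaling to 9 spiked control probe sets, a filter at the median signal, log2(signal + 100), a floor at background (with only probe sets above background on at least 1 array tested), no variance trend, the methods' paired test, other background percentiles, and each replicate left out.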

Additional observations from a re-analysis of the deposited data

Results flagged for a closer look

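In groups of 4 arrays, 11 of 148 had a highest or lowest array that lay far from the other 3 (by Dixon's criterion), and chance alone marks about 1 in 20. In exosomes these were Canx on oxi exo 2 (190.0, with the others at 137 to 146), Pdia6 on oxi exo 3 (157, with 9.28 to 21.0), Derl2 on oxi exo 1 (85.3, with 2.75 to 6.75), Sec62 on oxi exo 3 (5.22, with 57.6 to 66.3), Hyou1 on norm exo 2 (25.1, with 172 to 178) and Pdia4 on norm exo 3 (103, with 13.7 to 20.5). All 6 lie below the exosome background. In cells they were Pdia4 on oxi cell 4 (85.0, with 88.9 to 89.6), Derl1 on oxi cell 4 (1434, with 1517 to 1529), Derl2 on oxi cell 3 (418, with 396 to 399), Sel1l on norm cell 3 (652, with 604 to 612) and Sec63 on norm cell 4 (265, with 241 to 244).

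The change under H2O2 was lower in exosomes than in cells, by the test of the difference itself, for Derl2 (-3.52), Creld2 (-3.47), Ssr3 (-2.63), Sec61a1 (-2.47), Ssr4 (-2.34), Rpn1 (-1.64) and P4hb (-1.45, all log2 with limma adjusted p from 0.0122 to 0.0371). The probe sets used for Derl2, Creld2 and Ssr4 were below background on all 8 exosome arrays. Of 11 alternatives, 2 kept the call of Derl2, 3 that of Ssr4 and 6 that of Creld2. Their differences came as near 0 as -0.16 for Derl2, -0.17 for Ssr4 and -0.49 for Creld2. The calls of P4hb and Rpn1 were each kept in 6 of the 11, and those of Ssr3 and Sec61a1 in 8.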

How the results depend on the processing

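The counts of called genes moved as follows. Of the 5 lower in oxi exo than in norm exo, quantile normalization left 2, limma without a trend 0, and the methods' paired test gave 12 on linear and 11 on log2 signals unadjusted and 0 on either after Benjamini-Hochberg, and 4 to 5 were called with a replicate left out. Of the 11 higher in oxi cell, limma without a trend and the methods' test after Benjamini-Hochberg (linear or log2) left 0. Scaling to the spiked controls gave 32 (with 6443 of all 45037 probe sets higher), and leaving out a replicate 5 to 10. For the 1 lower in oxi cell the counts were 2 without the replicate block, 3 under quantile normalization, 3 with the filter at the median signal, 3 with the floor at background, 0 scaled to the spiked controls, 0 without a trend, 1 to 2 with a replicate left out, and 3 by the methods' test on either scale unadjusted, with 0 after adjustment. For norm exo over norm cell, where 0 were higher, quantile normalization gave 2 and the floor 3, and for oxi exo over oxi cell the floor gave 3. For the difference between the changes, the floor gave 1 higher and 13 lower in place of 0 and 7, quantile normalization 3 lower, limma without a trend 0, and leaving out a replicate 0 to 6.

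With the background at the 99th percentile, 0 genes were detected in oxi exo and 5 in norm exo, and over all 95 probe sets of the genes the shares of signal were 0.232% in oxi exo, 0.357% in norm exo, 1.27% in oxi cell and 1.16% in norm cell.

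Called changes whose sign turned were, in norm exo over norm cell, Ssr3 (0.72, called) and Ssr1 (0.0053) under quantile normalization and Dnajb9 (0.20) and Pdia4 (1.76, called) with the floor, and, in oxi exo over oxi cell, Dnajb9 (0.70 with the floor, called). Uncalled ones of the genes described included Sec61a1 in norm exo over norm cell (1.14 under quantile normalization, called). In oxi exo over norm exo these were Calr (0.035 with the floor), Dad1 (0.060 with the floor), Pdia3 (0.0042 with spiked controls, and -1.15 to 0.64 with a replicate left out) and Herpud1 (-0.61 to 1.03 with a replicate left out). In oxi cell over norm cell they were Rpn1 (0.017 under quantile normalization, and 0.25 with spiked controls, where it was called), Xbp1 and Herpud1 (0.13 and 0.027 with spiked controls) and Pdia3 (-0.0088 to 0.26 with a replicate left out). For the difference between the changes they were Hsp90b1 (-0.17 with spiked controls, -0.070 with log2(signal + 100), -0.12 with the floor, and -0.065 to 0.22 with a replicate left out), Spcs1 (-0.032 with log2(signal + 100), -0.16 with the floor, and -0.11 to 0.71 with a replicate left out), Pdia3 (-1.41 to 0.60 with a replicate left out), Xbp1 (0.22 with the floor) and Herpud1 (-0.41 to 1.26 with a replicate left out). The cause of these shifts was not tested.

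Whether the replicate numbers pair the arrays is not shown by the data: deviations of arrays of the same number correlated at -0.02 to 0.02. Without the replicate block 4 genes were lower in oxi exo, 11 higher in oxi cell, 32 lower in norm exo than in norm cell, 35 lower in oxi exo than in oxi cell, and 5 lower for the difference between the changes. Signal over background limits the exosome values: 24 of the 37 genes in oxi exo and 20 in norm exo lay below background on all 4 arrays.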
